A study of Mus musculus with 6 samples.

Results

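Cholangiocytes, the epithelial cells that line the bile ducts, are described here through 9 genes in injured mouse liver. The genes were *Krt19* and *Krt7* (duct keratins), *Sox9* and *Ehf* (transcription factors), *Epcam*, *Cldn7* and *Cd24a* (proteins of the cell surface and of cell contacts), *Cftr* (a chloride channel) and *Muc1* (a mucin). They were taken by name, and all 9 were found among the 15454 rows of the count table and the 21948 rows of the FPKM table (fragments per kilobase of transcript, scaled for depth). All 9 passed the filter on low counts that left 12411 genes for testing, so none was lost from what follows.

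The livers came from male C57BL/6 mice aged 8 to 10 weeks, in all of which 75% of the liver had been made ischemic at body temperature and then reperfused. Per the study's methods, ischemia and reperfusion were timed in hours, not days, and livers were taken when reperfusion ended. The 3 liver samples of the I/R group (vehicle livers 1 to 3) came from mice that received vehicle solution, and the 3 of the I/R+Rk2 group (Rk2 livers 1 to 3) from mice that received ginsenoside Rk2, a saponin of ginseng, first 2 days ahead of the operation and once more when reperfusion began. Per the study's methods, the I/R+Rk2 libraries stand for its high-dose arm. No unoperated or sham-operated liver was analysed here, so the levels before injury are not given, and the comparison asks how Rk2 changed these genes within injured liver. RNA of bulk liver tissue was sequenced, in which fewer duct cells and less RNA per duct cell cannot be told apart.

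Bile ducts are a small part of liver tissue, and their cells secrete water and bicarbonate into bile, partly through the Cftr channel. When liver is injured, cholangiocytes and progenitor-like cells at the portal tract can expand into irregular small ducts, which is known as the ductular reaction. Keratins 7 and 19, Epcam and Sox9 are its usual markers, Notch and YAP are pathways known to direct biliary fate, and TWEAK (*Tnfsf12*) acting on its receptor Fn14 (*Tnfrsf12a*) is a known stimulus. None of the 9 genes is restricted to ducts: Sox9 and Cd24a also occur in other epithelia and, for Cd24a, in blood cells, while Krt7 and Krt19 also occur in mesothelium. Whether a ductular reaction had formed in these livers, taken within hours of the injury, was not tested.

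Total counts were 16809613 to 35618074 per library, so that 3 counts stood for 0.0888 to 0.184 CPM (counts scaled to libraries of equal size by the trimmed mean of M values). The liver identity of the samples was plain from 9 measured hepatocyte genes, whose summed level was 66400 to 77640 CPM in the vehicle livers and 100200 to 123400 CPM in the Rk2 livers. At an adjusted p below 0.05 (edgeR), 43.9% of all genes tested changed with Rk2, 23.7% lower and 20.3% higher, and the median log2 fold change (log2FC, I/R+Rk2 over I/R) of all genes was -0.01. The balance of the calls depended on the scaling: 2516 genes rose and 2938 fell with the main scaling, 2884 and 2691 with upper-quartile scaling, and 1320 and 3481 with library size alone. With limma on log2(FPKM + 1), which differs in unit, test and genes tested (9914 with a mean FPKM of at least 1), 1172 rose and 2670 fell. No batch is named in the labels, so none could be separated from the groups.

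Promoter windows are shown for *Epcam* and *Cldn7*, whose levels fell, and for *Krt7*, whose level did not pass the test, because epithelial genes of this kind are known targets of factors that read the E-box and ETS motifs. Each window is the 250 bases before a RefSeq start site on the plus strand of GRCm38.p6, at chr17:87635729-87635978 for *Epcam*, at chr11:69964529-69964778 and chr11:69965171-69965420 for 2 starts of *Cldn7*, and at chr15:101412153-101412402 for *Krt7*. Capitals mark the E-box CAGGTG and the ETS motif AGGAAG, each on either strand (CACCTG and CTTCCT when reversed). AGGAAG is a longer form of the ETS core GGAA, and other GGAA in the windows were neither marked nor counted.
Epcam: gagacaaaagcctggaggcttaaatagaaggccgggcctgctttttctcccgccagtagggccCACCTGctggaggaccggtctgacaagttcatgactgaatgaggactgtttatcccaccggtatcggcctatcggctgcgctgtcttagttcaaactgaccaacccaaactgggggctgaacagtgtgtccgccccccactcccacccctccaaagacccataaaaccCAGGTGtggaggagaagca
Cldn7 first start: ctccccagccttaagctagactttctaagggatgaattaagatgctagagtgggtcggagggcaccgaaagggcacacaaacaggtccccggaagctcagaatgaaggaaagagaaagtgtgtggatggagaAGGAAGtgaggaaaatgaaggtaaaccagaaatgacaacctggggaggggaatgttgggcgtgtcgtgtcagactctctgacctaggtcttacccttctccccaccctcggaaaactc
Cldn7 second start: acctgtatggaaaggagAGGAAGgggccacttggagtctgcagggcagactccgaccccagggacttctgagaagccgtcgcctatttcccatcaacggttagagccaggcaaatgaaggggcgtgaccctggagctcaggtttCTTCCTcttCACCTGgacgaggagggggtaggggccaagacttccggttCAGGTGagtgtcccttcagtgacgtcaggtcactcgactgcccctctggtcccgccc
Krt7: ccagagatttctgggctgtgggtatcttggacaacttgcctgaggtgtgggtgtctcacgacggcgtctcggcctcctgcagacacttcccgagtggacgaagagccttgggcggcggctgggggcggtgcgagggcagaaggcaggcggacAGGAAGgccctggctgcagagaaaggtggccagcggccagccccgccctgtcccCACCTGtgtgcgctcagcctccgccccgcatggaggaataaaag
The *Epcam* window held 2 E-boxes, beginning 187 and 19 bases before the start, and 0 AGGAAG motifs. The second *Cldn7* start had 2 E-boxes and 2 AGGAAG motifs within its window, and the first had 1 AGGAAG motif and 0 E-boxes. The *Krt7* window carried 1 of each. These letters are common: 17.2% of 32851 promoter windows held the E-box and 29.5% the AGGAAG motif. A match describes the letters in the window and not a site in use, and *Epcam*, *Cldn7* and *Krt7* each carried at least 1 of these motifs. Windows were available for 5 of the 9 genes. Of those not shown, *Cftr*, whose level fell, had 0 E-boxes and 2 AGGAAG motifs. *Muc1*, which did not pass the test, had 2 E-boxes and 0 AGGAAG motifs.

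Of the 9 genes, 4 fell with Rk2 at an adjusted p below 0.05 and 0 rose, against 23.7% of all genes that fell and 20.3% that rose. The genes that fell were *Cd24a*, *Epcam*, *Cldn7* and *Cftr*. The 5 others, *Krt19*, *Krt7*, *Sox9*, *Ehf* and *Muc1*, did not pass the test and overlapped between the groups. With a fold above 2 added to the rule, *Cldn7* and *Cftr* remained, against 11.4% of all genes. The median log2FC over the 9 genes was -0.61. Their summed level was 54.4 to 65.3 CPM in the I/R group and 39.0 to 50.9 CPM in the I/R+Rk2 group. The Rk2 livers lay wholly below the vehicle livers for the same 4 genes that fell, as they did for 30.3% of all genes tested.

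**Figure D1:**
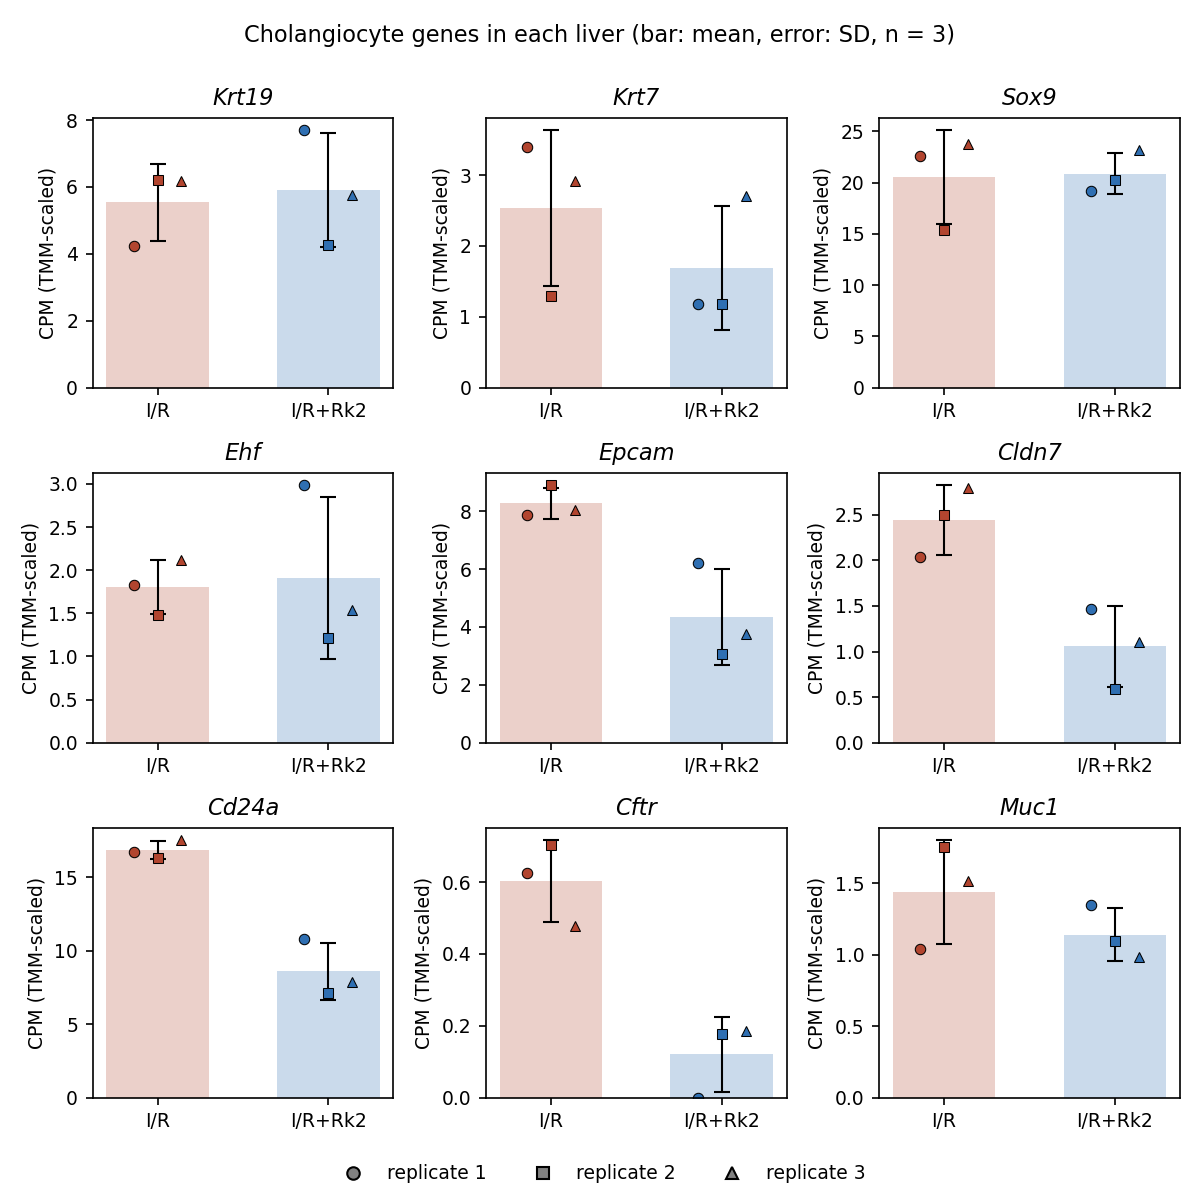
CPM of each of the 9 genes (vertical axes, each starting at 0) in the 3 vehicle (I/R) and the 3 Rk2 (I/R+Rk2) livers, with a marker per liver, bars for the group mean and error bars for the SD. The groups are apart for Epcam, Cldn7, Cd24a and Cftr, and they overlap for Krt19, Krt7, Sox9, Ehf and Muc1.

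Of the genes that fell, *Cd24a* had the smallest adjusted p. *Cd24a* (chr10:43578284-43584265, plus strand) encodes a small, heavily glycosylated surface protein found on progenitor-like duct cells and on several blood cell types. Its counts were 321, 417 and 439 in vehicle livers 1 to 3 and 257, 240 and 128 in Rk2 livers 1 to 3. Scaled for depth, this was 16.7, 16.3 and 17.5 CPM against 10.8, 7.11 and 7.86 CPM, so that the highest Rk2 liver stood well under the lowest vehicle liver. The mean went from 16.8 ± 0.620 to 8.59 ± 1.95 CPM (SD, n = 3 in each group), a log2FC of -0.97 with a standard error (SE) of 0.17 and an edgeR adjusted p of 0.00427. *Cd24a* kept this call in all 16 alternative fits, the 6 fits that left out a liver among them, and there the log2FC ran from -1.18 to -0.84.

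*Epcam* (chr17:87635979-87651129, plus strand) encodes the epithelial cell adhesion molecule, which in adult liver is known from duct cells rather than hepatocytes. Its counts were 151, 228 and 202 in the vehicle livers and 148, 104 and 61 in the Rk2 livers, or 7.87, 8.90 and 8.05 CPM against 6.22, 3.08 and 3.75 CPM. The vehicle livers were close together, and Rk2 liver 1 was nearest to them. The mean was 8.27 ± 0.547 CPM in the I/R group and 4.35 ± 1.66 CPM in the I/R+Rk2 group, a log2FC of -0.93 (SE 0.26, edgeR adjusted p = 0.0243).

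*Cldn7* (chr11:69964779-69967885, plus strand) encodes claudin 7, a tight junction protein that binds Epcam directly. It was at 39, 64 and 70 counts in the vehicle livers and at 35, 20 and 18 counts in the Rk2 livers. On the depth-scaled level these were 2.03, 2.498 and 2.79 CPM against 1.47, 0.592 and 1.10 CPM, and again Rk2 liver 1 was the highest of its group. The mean level was 2.44 ± 0.382 CPM against 1.06 ± 0.442 CPM, a log2FC of -1.23 (SE 0.36, edgeR adjusted p = 0.0281).

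*Cftr* (chr6:18170687-18322768, plus strand), the chloride channel that drives secretion at the duct surface, was barely detected. Its counts were 12, 18 and 12 in the vehicle livers and 0, 6 and 3 in the Rk2 livers, which is 0.626, 0.703 and 0.478 CPM against 0, 0.178 and 0.184 CPM. The 42 counts of the I/R group and the 9 of the I/R+Rk2 group, each over its summed scaled depth, gave a ratio of 4.93 (exact 95% interval 2.37 to 11.5, counting error only). The fitted log2FC was -2.27 (SE 0.69, edgeR adjusted p = 0.0326), a value that depends on the prior count at so few reads. *Cftr* shares 129 exon bases with the antisense gene *Gm15592*, and since the strand setting of the authors' counting was not given, reads of the pair may be mixed.

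The calls of *Epcam*, *Cldn7* and *Cftr* depended on most single livers. Each was kept when Rk2 liver 1 was left out and missed the threshold when any other liver was, with adjusted p-values of 0.0596, 0.0525 and 0.0888 without vehicle liver 1 for the 3 genes in that order. Without vehicle liver 2 they were 0.0696, 0.0689 and 0.092, and without vehicle liver 3 they were 0.0633, 0.0905 and 0.0666. Without Rk2 liver 2 they were 0.0661, 0.0625 and 0.0621, and without Rk2 liver 3 they were 0.0706, 0.06 and 0.0568. The direction was down in each of these fits, with log2FCs between -1.299 and -0.72 for *Epcam*, between -1.59 and -0.91 for *Cldn7* and between -2.86 and -1.72 for *Cftr*. *Cftr* also missed the threshold when no filter on low counts was applied (adjusted p = 0.0601).

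**Figure D2:**
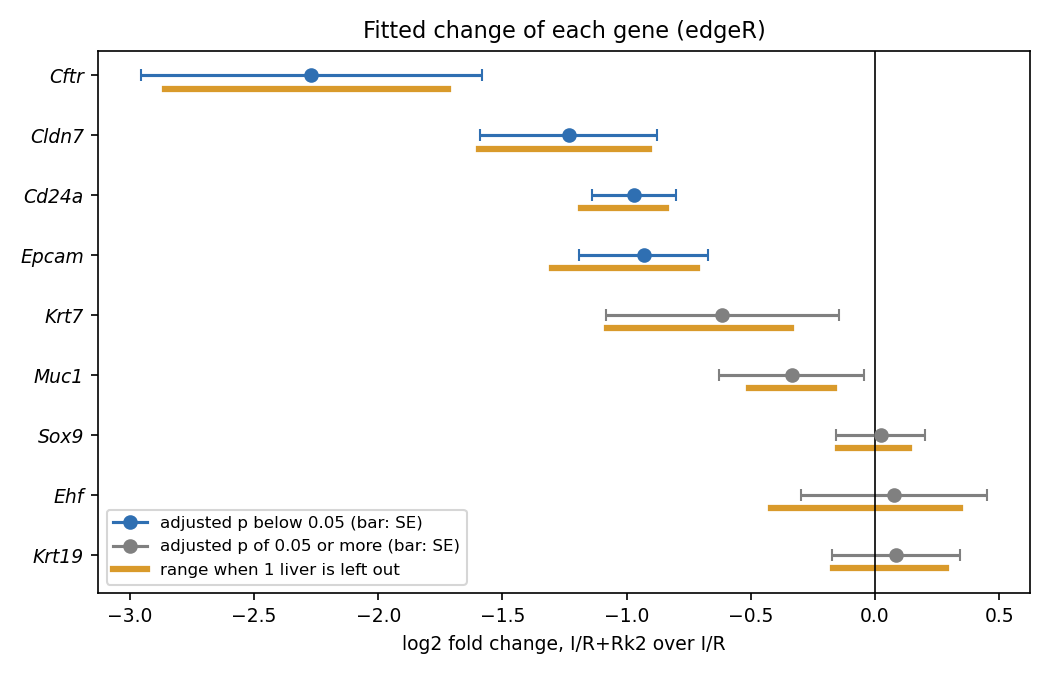
Fitted log2FC of each gene, I/R+Rk2 over I/R, with bars of 1 SE, and in orange the range of the fitted value when each liver in turn is left out. Cftr, Cldn7, Cd24a and Epcam lie left of 0 over their whole ranges, while the ranges of Sox9, Ehf and Krt19 cross 0.

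Neither of the duct keratins passed the test. *Krt19* (chr11:100140810-100148665, minus strand), the intermediate filament protein by which ducts are usually stained, had 81, 159 and 155 counts in the vehicle livers and 183, 144 and 94 counts in the Rk2 livers. Its level was 4.22, 6.21 and 6.18 CPM against 7.69, 4.26 and 5.77 CPM, with the highest and nearly the lowest liver in the treated group. The mean was 5.54 ± 1.14 CPM and 5.91 ± 1.72 CPM, a log2FC of 0.08 (SE 0.26, edgeR adjusted p = 0.809). *Krt7* (chr15:101411043-101430313, plus strand), the other duct keratin, had 65, 33 and 73 counts against 28, 40 and 44, or 3.39, 1.29 and 2.91 CPM against 1.18, 1.18 and 2.70 CPM. One liver of each group stood among those of the other, and the log2FC of -0.61 (SE 0.47) had an edgeR adjusted p of 0.322. Its exons overlap those of the antisense gene *Gm671* by 77 bases.

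The transcription factors also overlapped. *Sox9* (chr11:112782224-112787760, plus strand), which acts in duct formation and is also induced in hepatocytes near the portal tract after injury, was at 22.6, 15.3 and 23.7 CPM in the vehicle livers and at 19.2, 20.3 and 23.1 CPM in the Rk2 livers (433, 393 and 595 counts against 457, 685 and 377). Its log2FC was 0.02 with an SE of 0.18 (edgeR adjusted p = 0.927), the smallest difference of the 9. *Ehf* (chr2:103263433-103303278, minus strand), an ETS factor of epithelia, was at 1.83, 1.48 and 2.11 CPM against 2.98, 1.21 and 1.53 CPM, from 35, 38 and 53 counts and 71, 41 and 25 counts. Rk2 liver 1 was the highest of all 6 livers and the other Rk2 livers stood at the low end of the vehicle range or below it, and the log2FC was 0.08 (SE 0.37, edgeR adjusted p = 0.882). The sign of the small differences of *Krt19*, *Sox9* and *Ehf* turned with the scaling: with library size alone they were -0.06, -0.15 and -0.07, while the median of all genes moved to -0.17.

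*Muc1* (chr3:89229057-89233381, plus strand), a mucin anchored in the apical membrane of duct and other secretory epithelia, was at 20, 45 and 38 counts in the vehicle livers and at 32, 37 and 16 counts in the Rk2 livers. In CPM these were 1.04, 1.76 and 1.51 against 1.34, 1.09 and 0.983. The lowest vehicle liver stood among the treated ones, and the log2FC of -0.34 (SE 0.29) did not pass the test (edgeR adjusted p = 0.384).

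To set the genes against each other without any scaling between libraries, the counts of each were divided by those of *Krt19* in the same liver, with *Krt19* taken as the denominator after its values had been seen. *Epcam* stood at 1.864, 1.434 and 1.303 counts per *Krt19* count in the vehicle livers and at 0.809, 0.722 and 0.649 in the Rk2 livers. For *Cldn7* the ratios were 0.482, 0.403 and 0.452 against 0.191, 0.139 and 0.191. For *Cd24a* they were 3.96, 2.62 and 2.83 against 1.40, 1.67 and 1.36. The ratio of *Cftr* was 0.148, 0.113 and 0.0774 against 0, 0.0417 and 0.0319. For these 4 genes the Rk2 livers lay wholly below the vehicle livers, and for *Krt7*, *Sox9*, *Ehf* and *Muc1* the groups overlapped. Among all other genes tested, 18.8% had a ratio to *Krt19* that was lower in every Rk2 liver. An exact permutation test of 3 livers against 3 cannot go below p = 0.1 (two-sided), which is the value that each of the 4 ratios gave.

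The keratins of simple epithelia were set against *Krt19* in the same way. *Krt8* and *Krt18*, which form the filaments of hepatocytes and duct cells alike, are a keratin pair that most of the liver parenchyma makes, unlike *Krt7* and *Krt19*. There were 153, 125 and 108 counts of *Krt8* per *Krt19* count in the vehicle livers and 36.0, 58.8 and 36.7 in the Rk2 livers. The *Krt18* ratio was 171, 127 and 127 in the vehicle livers and 38.3, 59.7 and 41.5 in the Rk2 livers. Neither pair of ranges overlapped.

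**Figure D3:**
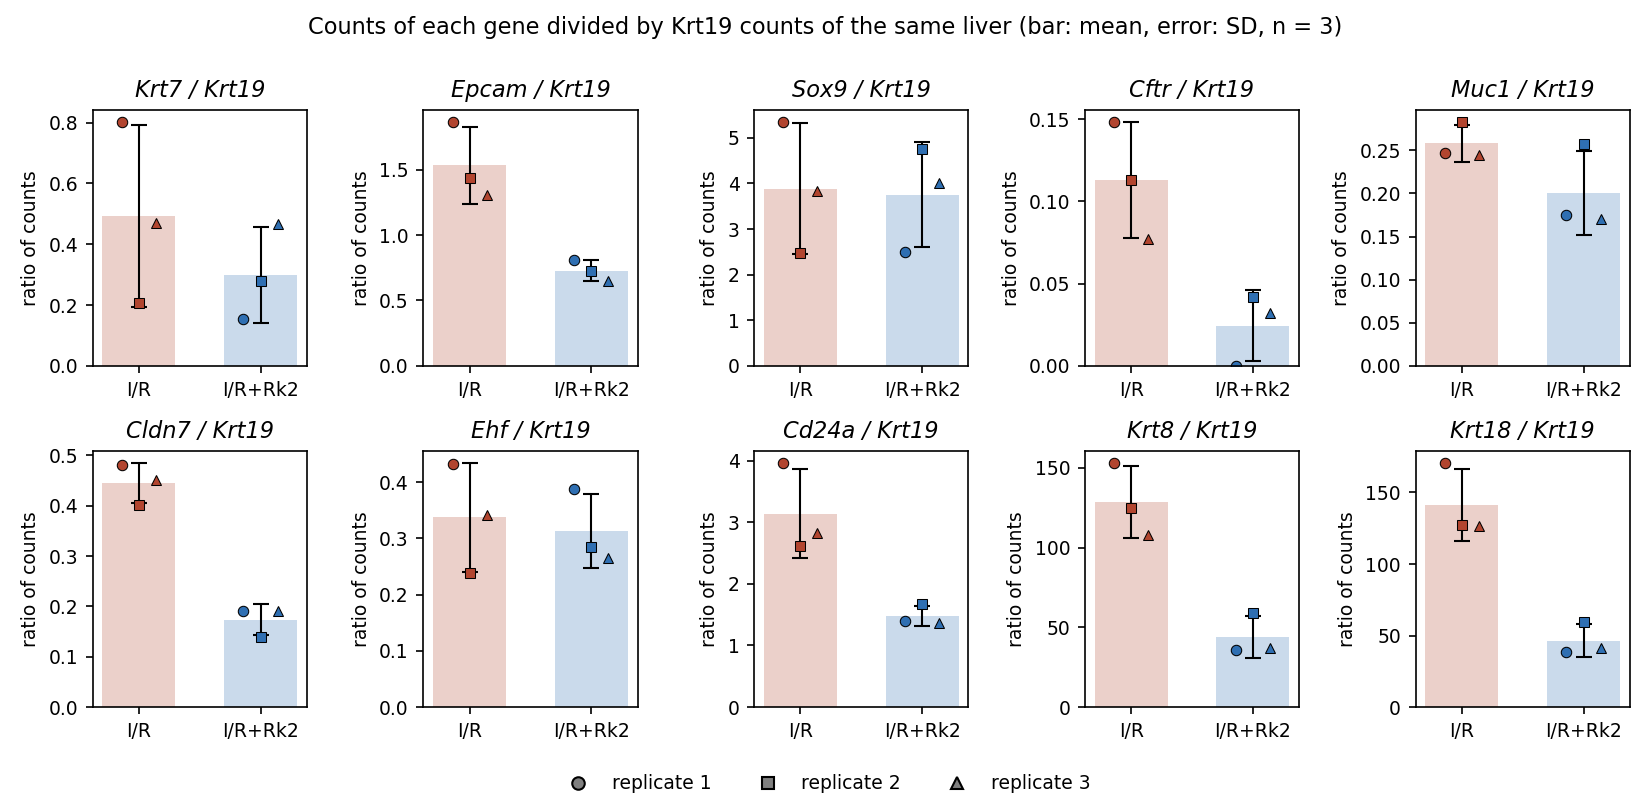
Counts of 8 of the genes, and of the keratins Krt8 and Krt18, divided by the Krt19 counts of the same liver (vertical axes, each starting at 0), with a marker per liver, bars for the group mean and error bars for the SD. The Rk2 livers are all below the vehicle livers for Epcam, Cldn7, Cd24a, Cftr, Krt8 and Krt18.

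Levels were compared between genes in FPKM, which accounts for length. In the I/R group the order was *Cd24a* (9.30 ± 0.497 FPKM), *Sox9* (4.94 ± 1.22), *Epcam* (4.01 ± 0.236), *Krt19* (3.81 ± 0.833), *Cldn7* (2.18 ± 0.247), *Muc1* (0.758 ± 0.288), *Krt7* (0.668 ± 0.272), *Ehf* (0.400 ± 0.073) and *Cftr* (0.093 ± 0.0194). *Cd24a* was apart from *Sox9* in every liver, *Krt19* from *Cldn7*, *Cldn7* from *Muc1* and *Ehf* from *Cftr*, while the neighbours *Sox9*, *Epcam* and *Krt19*, and likewise *Muc1*, *Krt7* and *Ehf*, overlapped. In the I/R+Rk2 group *Sox9* (mean 4.47 FPKM), *Cd24a* (4.34) and *Krt19* (3.69) formed the top of the order and overlapped with each other, and *Epcam* (1.90) came next, below *Sox9* and *Cd24a* in every liver, overlapping *Krt19* and above *Cldn7* (0.807) in every liver. *Epcam* thus had a mean level near that of *Krt19* in vehicle livers and a lower one in Rk2 livers, at 2.78, 1.33 and 1.58 FPKM for *Epcam* against 5.14, 2.39 and 3.55 FPKM for *Krt19*.

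The count and FPKM tables did not carry the same message for each gene. The length implied by counts over the unscaled library total, divided by FPKM, was constant for *Epcam* (2.17 to 2.19 kb) and *Sox9* (4.39 to 4.43 kb). For *Ehf* it was 2.31 kb in Rk2 liver 1 and 4.75 to 4.80 kb in the other 5 livers, so that the same liver read 1.26 FPKM while the others read 0.240 to 0.449 FPKM. For *Muc1* it was 1.46 kb in vehicle liver 3 and 2.38 to 2.5 kb in the other livers. It also varied for *Cldn7* (1.003 to 1.43 kb) and for *Cftr*, at 6.84 to 6.90 kb in the vehicle livers and at 8.22 and 10.2 kb in Rk2 livers 2 and 3, where its counts were 6 and 3. For *Krt7* it was 3.58 to 4.40 kb, for *Krt19* 1.42 to 1.69 kb and, with the least variation of these, for *Cd24a* 1.80 to 1.95 kb. The FPKM levels of all genes but *Epcam* and *Sox9*, and their place in the order above, therefore rest on lengths that differed between livers. The *Krt19* levels set beside *Epcam* share this limit. Changes were read from counts.

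Genes whose pattern over the 6 libraries was most like that of *Krt19* were *Tmem126a*, *Tubgcp4* and *Slc22a7*, with root mean square differences of 0.0792, 0.0849 and 0.095 on the centred log2(CPM + 1) scale. For *Sox9* they were *Nkap* (0.0622), *Psip1* (0.0662) and *Gm4788* (0.0712), out of 11600 genes compared. None of the other 8 duct genes was among them, but only the 3 nearest genes were listed for each. Their absence therefore does not show how the duct genes varied together. Both *Krt19* and *Sox9* vary little between the groups.

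Related biliary gene groups were read from the same fit, beside the same share of 23.7% of all genes that fell and 20.3% that rose. Among 8 tested transcription factors of biliary and epithelial cells (of 10 listed), 4 fell, 1 rose and 3 did not pass the test, with a median log2FC of -0.52. *Sox4*, a factor that acts with Sox9 in duct development, fell from 7.12 ± 1.17 to 3.72 ± 0.785 CPM (log2FC -0.95, edgeR adjusted p = 0.0102). It shares 2616 exon bases with *Gm26735* on the opposite strand. *Glis3*, a zinc finger factor of duct and islet development, fell from 3.67 ± 0.525 to 1.495 ± 0.898 CPM (log2FC -1.30, edgeR adjusted p = 0.0352), a call that was kept without Rk2 liver 1 and missed when any of the other 5 livers was left out, where its adjusted p was 0.0663 without vehicle liver 1, 0.0946 without vehicle liver 2, 0.0873 without vehicle liver 3, 0.092 without Rk2 liver 2 and 0.0934 without Rk2 liver 3. Thus *Sox4* fell where *Sox9* did not pass the test.

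Structural genes of the duct epithelium went in both directions. Of 17 tested, 3 fell, 5 rose and 9 did not pass the test, and the median was -0.0038. *Krt18* fell from 764 ± 38.1 to 263 ± 28.7 CPM (log2FC -1.54, SE 0.11, edgeR adjusted p = 0.00024), and *Krt8* fell from 696 ± 68.8 to 247 ± 32.8 CPM (log2FC -1.50, SE 0.13, edgeR adjusted p = 0.00045). *Cldn3*, a claudin of bile canaliculi and ducts, rose from 37.7 ± 1.76 to 68.9 ± 4.79 CPM (log2FC 0.87, SE 0.09, edgeR adjusted p = 0.000698), opposite in sign to *Cldn7*. The other genes that rose were *Cldn4*, *Ocln*, *Cgn* and *Spint2*. *Cldn4* encodes another claudin, and *Ocln* (occludin) and *Cgn* (cingulin) also encode tight junction proteins. *Cldn4* was at 1.51, 1.6 and 1.75 CPM in vehicle livers 1 to 3 and at 8.78, 3.20 and 2.27 CPM in Rk2 livers 1 to 3 (edgeR adjusted p = 0.0399). *Tspan8*, a tetraspanin, was the other gene that fell. These genes are made by hepatocytes as well as ducts to differing degrees, and the hepatocyte marker sum was higher in every Rk2 liver. That sum was mostly *Alb* (mean 49230 CPM in vehicle and 80120 CPM in Rk2 livers). Of 9 hepatocyte genes tested, 5 rose and 4 did not pass the test. The part of hepatocytes in the rises was not tested.

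Of the 8 genes of the primary cilium and the polycystins, by which duct cells sense flow, 2 rose, 2 fell and 4 did not pass the test (median 0.13). *Pkhd1*, which encodes fibrocystin, rose from 4.07 ± 1.41 to 9.29 ± 0.974 CPM (log2FC 1.19, edgeR adjusted p = 0.0101), while the calcium channel gene *Pkd2* fell from 20.1 ± 1.28 to 9.59 ± 0.447 CPM (log2FC -1.07, edgeR adjusted p = 0.000661). *Pkd1*, the partner of Pkd2, fell by 0.52 on the log2 scale (edgeR adjusted p = 0.0118) and shares 693 exon bases with *Tsc2* on the opposite strand. *Pkhd1* and *4930486I03Rik* overlap in the same way by 208 bases.

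Duct secretion and transport genes had 3 falls, 0 rises and 4 that did not pass the test among 7 tested (median -0.73). *Slc12a2*, the sodium, potassium and chloride cotransporter that loads secretory cells with chloride, fell from 9.67 ± 1.52 to 4.93 ± 0.213 CPM (log2FC -0.97, edgeR adjusted p = 0.00291), next to the fall of the chloride channel *Cftr*. *Slc10a2*, the apical bile acid transporter, fell from 27.9 ± 4.24 to 10.4 ± 3.72 CPM (log2FC -1.44, edgeR adjusted p = 0.00591). *Itpr3*, the calcium release channel of the apical duct pole, fell from 21, 33 and 35 counts to 5, 13 and 0 counts (edgeR adjusted p = 0.0172, and 0.0567 without vehicle liver 3). It overlaps its antisense gene *Itpr3os* by 233 exon bases. *Aqp1*, a water channel of ducts and endothelium, was at 70.2 and 64.1 CPM and did not pass the test. The secretin receptor gene *Sctr*, which in liver is known from cholangiocytes, was listed at 0 FPKM in all 6 libraries.

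Notch genes fell in 5 of 9 cases with 0 rises, and the median was -0.40. *Jag1*, the ligand whose loss leaves the liver short of bile ducts, fell from 15.1 ± 1.22 to 4.505 ± 1.05 CPM (log2FC -1.73, SE 0.18, edgeR adjusted p = 0.00075). *Rbpj*, the DNA-binding partner of the Notch receptors, fell from 23.7 ± 1.53 to 11.5 ± 0.453 CPM (log2FC -1.04, edgeR adjusted p = 0.000609). Of the targets, *Hey1* fell from 36, 24 and 31 counts to 5, 9 and 4 counts (edgeR adjusted p = 0.00325), and *Hes1*, at 10.9 and 12.2 CPM, did not pass the test. *Sox9*, which Notch is known to induce in the liver, showed no difference past its spread beside these falls.

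The YAP and TEAD group had 8 falls and 0 rises among 11 tested genes (median -0.75). *Ctgf*, a matrix-associated target, fell from 28.7 ± 3.35 to 13.6 ± 0.171 CPM (log2FC -1.08, edgeR adjusted p = 0.000738), the receptor kinase *Axl* from 17.6 ± 2.35 to 7.64 ± 0.883 CPM (log2FC -1.21, edgeR adjusted p = 0.00118) and the kinase *Lats2* from 19.3 ± 1.67 to 10.9 ± 1.20 CPM (log2FC -0.82, edgeR adjusted p = 0.00286). *Ctgf* shares 665 exon bases with *Gm15270* on the opposite strand and *Lats2* shares 2955 with *Gm49361* on its own strand. *Cyr61*, another usual target, was at 94.9 and 111 CPM and did not pass the test.

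Ligands, receptors and matrix genes of the ductular reaction showed the lowest median of these groups (-1.20), with 7 falls and 0 rises among 11 tested. *Tnfrsf12a*, the TWEAK receptor, fell from 127 ± 4.45 to 24.9 ± 10.2 CPM (log2FC -2.35, SE 0.27, edgeR adjusted p = 0.00102), while its ligand *Tnfsf12* was at 9.68 and 10.5 CPM and did not pass the test. *Hgf*, hepatocyte growth factor, fell from 4.79 ± 0.659 to 1.10 ± 0.118 CPM (log2FC -2.11, edgeR adjusted p = 0.000629), and it shares 484 exon bases with *Gm43489* on its own strand. *Lcn2*, a secreted lipocalin of injured hepatocytes and neutrophils, fell from 633 ± 167 to 48.9 ± 11.9 CPM (log2FC -3.70, edgeR adjusted p = 0.00024). *Spp1*, which encodes osteopontin and is a duct marker as well as a macrophage product, fell from 162 ± 29.7 to 70.6 ± 14.1 CPM (log2FC -1.20, edgeR adjusted p = 0.00296). *Fgf7* was listed at 0.

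**Figure D4:**
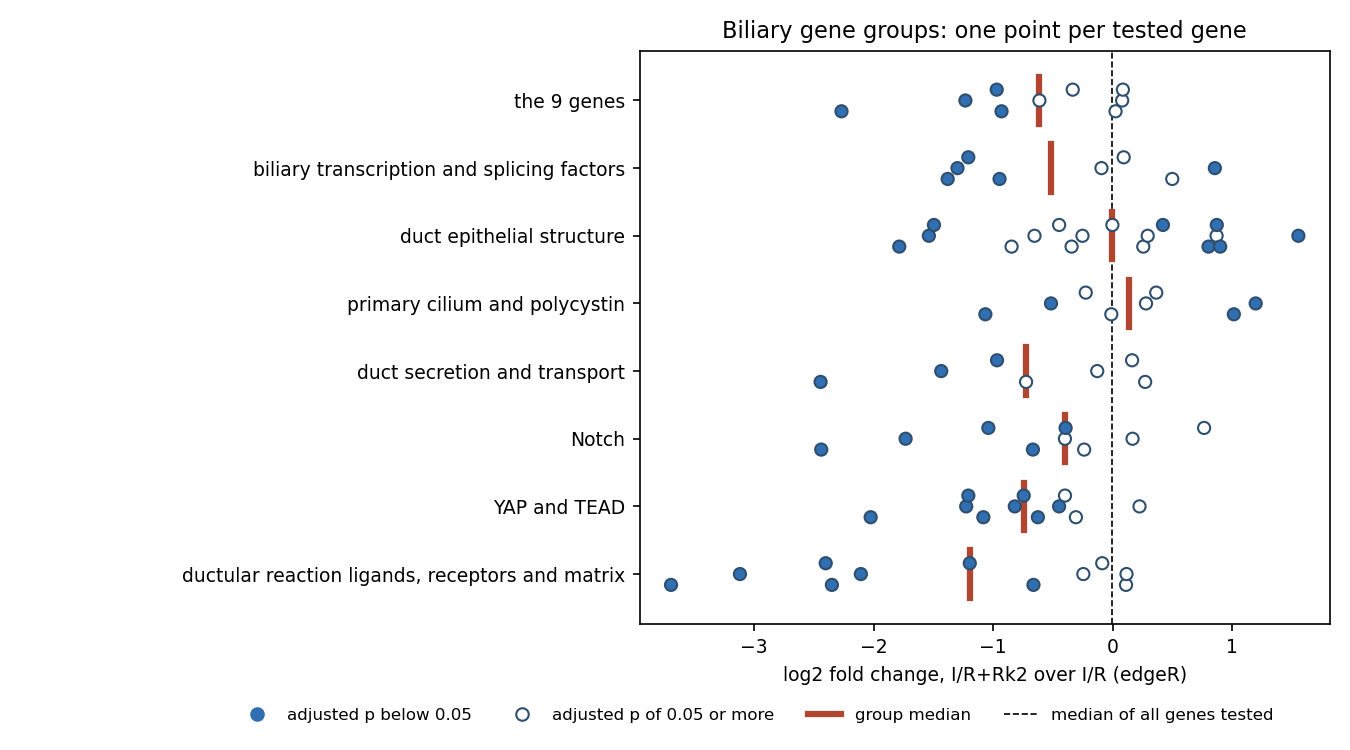
Fitted log2FC, I/R+Rk2 over I/R, of each tested gene of the 9 and of 7 related groups (rows), filled where the adjusted p was below 0.05, with a red bar at the group median and a dashed line at the median of all genes tested. The ductular reaction ligands and receptors and the YAP and TEAD genes have their filled points left of 0, and the structural and cilium genes have filled points on both sides.

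Markers of other cell types moved with the treatment beside these values. The summed level of 11 neutrophil genes was 480 to 597 CPM in the vehicle livers and 91.9 to 221 CPM in the Rk2 livers. Of 10 tested, 8 fell. Within the treated group that sum was highest in Rk2 liver 1 (221, 118 and 91.9 CPM in livers 1 to 3). *Cd24a*, *Epcam* and *Cldn7* were also highest there, as were *Krt19*, *Ehf* and *Muc1*, which did not pass the test. *Cftr* had 0 counts in that liver, and *Krt7* and *Sox9* were highest in Rk2 liver 3. All 8 monocyte genes fell, with a median log2FC of -4.38. *Ccr2*, the chemokine receptor of inflammatory monocytes, was at 14.2 ± 1.02 against 0.658 ± 0.127 CPM, and *F13a1* was at 64.0 ± 7.28 against 1.82 ± 0.796 CPM. Their sum, 1588 to 1914 CPM against 1128 to 1184 CPM, was mostly *Fn1*, fibronectin, which hepatocytes also make (1609 ± 178 against 1150 ± 30.5 CPM). Of the erythroid genes, 6 of 6 tested rose (1302 to 2521 against 3245 to 4197 CPM). B cell genes, another known source of *Cd24a*, were near 0 in both groups, with sums of 0.365 to 1.04 CPM against 1.26 to 1.39 CPM, and 0 were tested. Mesothelium also makes *Krt7* and *Krt19*, and the sum of the mesothelial genes was 4.33, 3.86 and 5.06 CPM in the vehicle livers and 3.53, 6.22 and 14 CPM in the Rk2 livers, highest in Rk2 liver 3 and lowest in Rk2 liver 1. *Krt7* was the highest of its group in Rk2 liver 3 but higher still in vehicle livers 1 and 3, and *Krt19* was the highest of all in Rk2 liver 1. *Gpm6a* was the only 1 of 5 tested mesothelial genes that rose, and *Muc16* and *Bnc1* had 0 to 4 counts in each liver. Pancreatic acinar genes summed to at most 0.533 CPM. Kupffer cell genes had 2 falls among 10 tested and stellate cell genes 4 among 8, each with 0 rises. Endothelial genes had 3 falls and 3 rises among 8 tested. Of all genes tested, 23.7% fell and 20.3% rose. The part of these cells in the values of the 9 genes was not tested.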

How the data were processed

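RNA of 6 mouse livers was sequenced on a BGISEQ-500 from 250 ng per liver (MGIEasy kit). Per the labels and the study's methods, reads were checked with FastQC 0.11.5, aligned to mm10 with HISAT2 2.2.1, handled with SAMtools and quantified with StringTie 1.3.3; annotation and strand setting are not given in the sources used here. The authors deposited whole-number counts per gene and, in a second table, FPKM. The authors used DESeq2 for the same comparison.

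Counts were tested in R 4.3.3 with edgeR 4.0.16 (filterByExpr, TMM, quasi-likelihood F test, group only), with Benjamini-Hochberg adjustment over all 12411 genes tested; a gene was called at an adjusted p below 0.05. Depth was 16809613 to 35618074 counts per library. Intervals and count floors cover counting error only. No 2 libraries of a group agreed within counting noise (chi-square per degree of freedom 31.4 to 74.8), so none was treated as a repeat deposit, which does not show that they are separate mice. Nothing in the labels beyond separate liver samples says that each library is another mouse, and p-values measure the spread between these samples.

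The 9 genes, the related groups and the marker lists were chosen with earlier results of these data known. All 9 genes were named, and from each related group the 3 tested genes with the smallest p, of which 1 gene is not reported here; other genes named (*Cldn4*, *Ocln*, *Cgn*, *Spint2*, *Tspan8*, *Aqp1*, *Hes1*, *Cyr61*, *Spp1*, *Tnfsf12*, *Sctr*, *Fgf7* and the cell type markers) were added after their values were seen. Likeness was taken over genes with a mean count of at least 20. Gene positions and overlaps are from GENCODE M21 (GRCm38), promoters from RefSeq (GRCm38.p6). Alternatives were other scalings and filters, DESeq2 1.42.0, limma 3.58.1 on log2(FPKM + 1) and log2(FPKM + 0.1), a replicate block and leaving out each liver. Scripts were tested on simulated data.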

Additional observations from a re-analysis of the deposited data

How the results depend on the processing

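The count of 4 genes called among the 9 was the same with relative log expression or upper-quartile scaling, with library size alone and with DESeq2. The FPKM fit without a filter also gave 4. It was 3 with no filter on counts, with at least 10 counts in every sample and in both filtered FPKM fits, and 2 with the replicate block. When a liver was left out, fewer samples entered the fit. The count was then 4 without Rk2 liver 1, and 1 (*Cd24a*) without any other liver. With a fold above 2 added, the count of 2 became 4 with library size alone, 1 with no filter, 1 with at least 10 counts in every sample, 0 with the replicate block, 0 with log2(FPKM + 1) with or without a filter, and 0 to 4 when a liver was left out. The median of -0.61 over the 9 genes became -0.25 on log2(FPKM + 1) without a filter and -0.87 to -0.40 when a liver was left out. On log2(FPKM + 0.1) it was -1.11 over the 5 genes that passed the filter on FPKM (*Krt19*, *Epcam*, *Sox9*, *Cldn7* and *Cd24a*). Over all genes, 5454 were called and 3933 to 5459 when a liver was left out. With a fold above 2, 1813 genes were called, 901 and 921 on log2(FPKM + 1) with and without a filter, and 1543 to 2012 when a liver was left out. The filter of at least 10 counts in every sample left out *Cftr*, which had 0, 6 and 3 counts in the Rk2 livers. On log2(FPKM + 1) without a filter the log2FC was -0.11 for *Cftr* and -0.82 for *Cldn7*, both short of a fold of 2. The cause of the other shifts was not tested.

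Small differences turned sign. For *Krt19* the log2 fold change was -0.0592 with library size alone, -0.0624 on log2(FPKM + 1) with or without a filter, -0.0857 on log2(FPKM + 0.1), and from -0.1692 to 0.2845 when a liver was left out (negative without vehicle liver 1 or Rk2 liver 1). For *Sox9* it was -0.15 with library size alone, -0.10 on log2(FPKM + 1), -0.11 on log2(FPKM + 0.1), and from -0.1495 to 0.1386 when a liver was left out (negative without vehicle liver 2 or Rk2 liver 3). For *Ehf* it was -0.0704 with library size alone, -0.0013 with the replicate block, and from -0.4177 to 0.344 when a liver was left out (negative without vehicle liver 2 or Rk2 liver 1). None of the 3 passed the test in any of these fits.

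Replicate numbers are shared between the groups, but nothing says that they pair the mice. The deviations of same-numbered livers from their group means correlated at -0.0313, 0.0477 and -0.0243 over genes, and not every liver correlated best with its own number. With the replicate block, 4713 genes were called in place of 5454. *Cd24a* and *Epcam* were called, and *Cldn7* (adjusted p = 0.0548), *Cftr* (0.0706) and *Glis3* (0.0588) were not. *Pkd1* missed the threshold in the filtered FPKM fits (0.0512 and 0.0615) and kept it without a filter (0.0343). *Hey1* missed it on FPKM without a filter (0.0505). Depth limits *Cftr*, *Itpr3* and *Hey1* most.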
